A study of Homo sapiens with 24 samples.

Results

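The 10 noncoding RNAs described here are the small nucleolar RNA (snoRNA) host genes GAS5, SNHG1, SNHG5, SNHG6, SNHG8, SNHG12, SNHG15 and ZFAS1, and the abundant nuclear RNAs MALAT1 and NEAT1. They were taken by symbol and are 10 of the 26364 gene rows counted in every library. The cells were T-47D, an estrogen receptor (ER)-positive line from a human mammary ductal carcinoma, carrying wild-type ER (WT) or a heterozygous ESR1 mutation, Y537S or D538G, at the endogenous locus. The characteristics field of the Y537S samples reads Y573S, and their titles read Y537S. Each genotype was represented by 2 single-cell clones: Y537S clones 1 and 2, D538G clones A5 and C2, and WT clones D1 and D4. All cells were kept in hormone-deprived medium and transfected at 10 nM for 24 h, so that every control library also received a transfected oligonucleotide. A negative control mimic and a mimic of miR-301b-3p were given to all 3 genotypes. A mimic of miR-331-3p went to Y537S and to WT cells, one of miR-181c-5p to D538G and to WT cells, and the let-7f inhibitor with its own negative control went to Y537S cells. With 1 library per clone and condition there were 24 libraries in 12 conditions. The comparisons ask what raising or blocking each miRNA did to the transcriptome of ER-mutant cells and whether WT cells responded alike.

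A snoRNA host gene carries snoRNAs, the guides of ribosomal RNA modification, in its introns. The snoRNAs are cut out of the spliced introns, and the spliced exons of many hosts are translated only to an early stop codon and degraded by nonsense-mediated decay (NMD). Several hosts, GAS5 the best known, begin with a run of pyrimidines, the 5' terminal oligopyrimidine (TOP) start they share with ribosomal protein mRNAs. MALAT1 stays in the nucleus, at nuclear speckles where splicing factors collect, and NEAT1 is the scaffold of paraspeckles. A miRNA acts on an RNA mainly through its seed, bases 2 to 8, by pairing to the complementary bases of the target.

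The 4 transfected miRNAs are shown because every comparison with a treatment rests on them. Each mature sequence is from RefSeq (GRCh38.p14) with the seed in capitals. No 2 of them share a seed.
miR-301b-3p: cAGUGCAAugauauugucaaagc
miR-331-3p: gCCCCUGGgccuauccuagaa
miR-181c-5p: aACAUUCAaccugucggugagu
let-7f-5p: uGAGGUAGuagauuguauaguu

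Matches to the seeds were searched on the sense strand of each member's canonical transcript, as TTGCACT for miR-301b-3p, as CCAGGGG for miR-331-3p, as TGAATGT for miR-181c-5p and as CTACCTC for let-7f-5p. NEAT1, with a transcript of 22743 bases, held 4, 6, 4 and 3 matches in this order. The miR-181c-5p match was also present once in SNHG6, SNHG8, SNHG12 and MALAT1, and no other member held a match to any of the 4 seeds. Over all 23857 genes with a canonical transcript, 17.4%, 25.7%, 25.0% and 19.02% held at least 1 match. These shares take no account of length, and NEAT1 is long. Per kilobase NEAT1 held 0.176, 0.264, 0.176 and 0.132 matches, beside 0.0683, 0.115, 0.134 and 0.0736 over all these transcripts. The 6 NEAT1 matches to miR-331-3p are shown because NEAT1 was the member with the largest difference in miR-331 response between Y537S and WT cells. They lie at bases 4587 to 21816 of the 22743-base transcript, while the median annotated NEAT1 transcript has 3300 bases. Which NEAT1 transcripts the counts came from, and so whether the counted RNA held these matches, was not tested. The match is in capitals, and the coordinates (GRCh37, plus strand) are those of the match. A match is a description of the letters and not a site shown to be bound.
NEAT1 chr11:65194855-65194861: aactgggactagCCAGGGGgaccaac
NEAT1 chr11:65195491-65195497: ctccactccaatCCAGGGGctggggc
NEAT1 chr11:65201563-65201569: ttcagcccttgcCCAGGGGatagttc
NEAT1 chr11:65209825-65209831: aaacagccctaaCCAGGGGtggggac
NEAT1 chr11:65211988-65211994: gcaggaggggctCCAGGGGccctccc
NEAT1 chr11:65212078-65212084: cccgccgtgggcCCAGGGGaggcaga

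MALAT1 held no match to miR-331-3p and 1 match to miR-181c-5p, which is shown because MALAT1 fell in WT cells with that mimic. This is 0.0958 matches per kilobase, beside 0.134 over all canonical transcripts. A link between the match and the fall was not tested.
MALAT1 chr11:65270044-65270050: gatagttcagctTGAATGTctcttag

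The start regions of 4 hosts are shown from 15 bases before the annotated start to 35 bases from it (RefSeq, GRCh38.p14). SNHG5, SNHG12 and SNHG1 were called with miR-331 in Y537S cells, and ZFAS1 was just outside the threshold. SNHG15, also called, had no usable entry in the promoter table. A link between the start and the response was not tested. The run of pyrimidines that spans the start is in capitals.
SNHG5 chr6:85678699-85678748, minus strand: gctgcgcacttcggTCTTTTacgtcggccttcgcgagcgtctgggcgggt
SNHG12 chr1:28581839-28581888, minus strand: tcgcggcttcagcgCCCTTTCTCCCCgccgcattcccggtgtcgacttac
ZFAS1 chr20:49278627-49278676, plus strand: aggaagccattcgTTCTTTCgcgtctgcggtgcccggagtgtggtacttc
SNHG1 chr11:62855851-62855900, minus strand: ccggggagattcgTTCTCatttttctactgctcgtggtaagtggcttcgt

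A C at the annotated start followed by 4 pyrimidines (C or T), the TOP pattern searched on the gene's own strand, was present in SNHG5, SNHG12 and ZFAS1, 3 of the 6 hosts with an entry in the promoter table. It was present in 4.07% of all 35116 promoters of the same length, in 16 of the 43 promoters of protein-coding snoRNA hosts and in 7 of 9 of TOP mRNAs. GAS5 has no pyrimidine run at the start given in this table.

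On GRCh37, which has the coordinates of the build used by the authors (hg19), SNHG1 lies at chr11:62619450-62623425, 51 bases from the start of the amino acid transporter gene SLC3A2 on the opposite strand. NEAT1 at chr11:65190245-65213011 and MALAT1 at chr11:65265111-65275544 are neighbours on the plus strand, and each has a single-exon canonical transcript. GAS5 is at chr1:173827697-173838020, SNHG12 at chr1:28905050-28909644, SNHG5 at chr6:86360209-86388650, SNHG15 at chr7:45022618-45026560 and SNHG6 at chr8:67832796-67838633, all on the minus strand. SNHG8 at chr4:119199858-119206471 and ZFAS1 at chr20:47894715-47916137 are on the plus strand. All 10 are annotated as long noncoding RNAs. GAS5, SNHG6, SNHG8, SNHG12, ZFAS1 and MALAT1 overlap genes on the opposite strand, among them ZBTB37 for GAS5, MCMDC2 for SNHG6, PRSS12 for SNHG8 and ZNFX1 for ZFAS1. The library kit keeps the strand, but the strand setting of the counting is not given in the sources used here, so a part of these counts could belong to the partner gene.

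The libraries held 31379962 to 50526442 counts, with a median of 39878595. MALAT1 took 0.0792% to 1.85% of all counts and was the most abundant row in the median library. NEAT1 took 0.00688% to 0.268%, and the 8 hosts together took 0.0285% to 0.0427%. The 8 luminal epithelial markers examined were detected in all libraries, with a summed level of 8877 to 14243 CPM (counts scaled to library size after TMM normalization). The 6 non-epithelial markers summed to 47.6 to 81.1 CPM, nearly all from COL1A1, with the leukocyte marker PTPRC at 0 CPM in the median library.

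The genotypes were first compared with the mimic negative control, in 1 fit of the 6 libraries (edgeR's quasi-likelihood test, Benjamini-Hochberg adjustment over all genes tested, adjusted p under 0.05). MALAT1 and NEAT1 were lower in Y537S cells than in WT cells and SNHG1 was higher. Of the 10 members, 2 rose and 5 fell in Y537S against WT cells, where 32.0% of all genes tested were called. In D538G against WT cells 1 rose and 1 fell, beside 32.1% of all genes, and in Y537S against D538G cells 1 fell, beside 9.98%. With each pair of genotypes in its own fit, 5 members were called in D538G against WT cells, 2 up and 3 down. The counts then stayed at 7 in Y537S against WT and at 1 in Y537S against D538G cells. The 3 comparisons share libraries and are not independent of each other. In bulk libraries such as these, fewer cells with an RNA and less of it per cell cannot be told apart.

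MALAT1 measured 18468 and 17471 CPM in the WT clones, 11876 and 10975 CPM in the D538G clones and 8926 and 11663 CPM in the Y537S clones. Both WT clones were above all 4 mutant clones, and the clones of the 2 mutants overlapped. The log2 fold change of MALAT1 was -0.77 ± 0.12 (SE, adjusted p = 0.00171) in Y537S and -0.64 ± 0.12 (adjusted p = 0.00415) in D538G cells, each against WT. NEAT1 measured 2586 and 2161 CPM in WT, 1980 and 1442 CPM in D538G and 656.0 and 1007 CPM in Y537S clones. The levels ran in the order WT, D538G, Y537S with no overlap between genotypes. NEAT1 was 2.80-fold lower in Y537S than in WT cells (log2 -1.48 ± 0.21, adjusted p = 0.00123) and 2.03-fold lower in Y537S than in D538G cells (log2 -1.02 ± 0.21, adjusted p = 0.0205). The second call was lost without D538G clone A5 (log2 -0.77, adjusted p = 0.144). Between D538G and WT cells the NEAT1 value, -0.46 ± 0.21, was not called (adjusted p = 0.125). It passed without Y537S clone 1 or 2 (adjusted p = 0.0156 and 0.0165), with these genotypes in a fit of their own (0.0211) and without the filter on low counts (2.63e-09).

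**Figure D1:**
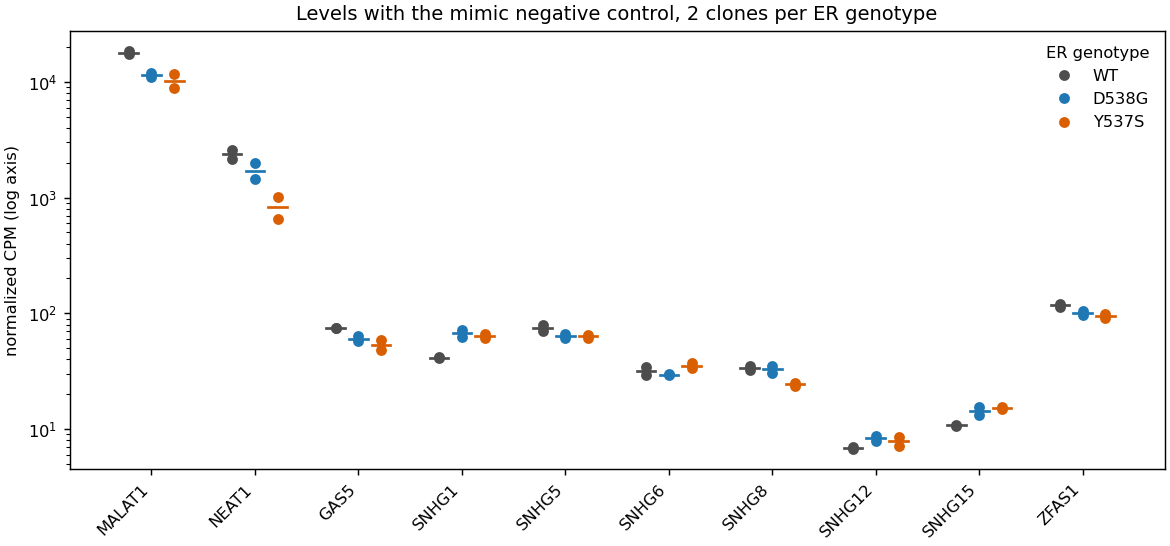
Level of each RNA with the mimic negative control, in normalized CPM on a log axis, for WT, D538G and Y537S cells; each point is 1 clone and each line the mean of 2. MALAT1 lies at 8926 CPM or above in all 6 libraries, and for NEAT1 the 2 Y537S clones, at 656.0 and 1007 CPM, lie below the other 4.

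SNHG1, the host of SNORD22 and of SNORD25 to SNORD31, moved the other way. It measured 41.9 and 41.0 CPM in WT, 62.3 and 71.6 CPM in D538G and 66.5 and 60.9 CPM in Y537S clones, so that both mutants lay above WT and overlapped each other. The log2 fold change was 0.65 ± 0.10 (adjusted p = 0.00137) in Y537S and 0.70 ± 0.10 (adjusted p = 0.00102) in D538G cells. Under the miR-301b mimic in place of the control, the Y537S value was 0.32 (adjusted p = 0.0633). SLC3A2, whose start faces that of SNHG1, was also higher in both mutants, by 0.64 ± 0.09 in Y537S (adjusted p = 0.00112) and 0.49 ± 0.09 in D538G cells (adjusted p = 0.00421) on the log2 scale.

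The other hosts differed less between genotypes. In Y537S against WT cells GAS5 was lower by 1.37-fold (74.9 and 74.0 CPM in WT, 48.2 and 58.3 CPM in Y537S, adjusted p = 0.0139), SNHG8 by 1.36-fold (adjusted p = 0.0166) and ZFAS1 by 1.21-fold (adjusted p = 0.0358), and SNHG15 was 1.44-fold higher (adjusted p = 0.0240). In all 4 hosts the Y537S and WT clones did not overlap. Such a separation of 2 against 2 has an exact permutation p of 0.333, so it adds little to the calls. The calls of these 4 rest on few libraries. GAS5 and SNHG8 lost the call without either WT clone (adjusted p = 0.0554 to 0.105), SNHG15 also without Y537S clone 1 (0.0797 to 0.140 without each of these 3), and ZFAS1 without Y537S clone 1, D538G clone A5 or either WT clone (0.0526 to 0.171). SNHG15 under the miR-301b mimic differed by 0.30 (adjusted p = 0.220) in place of 0.52. SNHG5, SNHG6 and SNHG12 were not called in any of the 3 comparisons in the fit of the 6 libraries.

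Levels of different RNAs can be compared only per base of transcript, and the length used decides much of the order. MALAT1 was the highest per kilobase in all 3 genotypes under both lengths tried, the canonical transcript and the median of all annotated transcripts. In WT cells it stood at 1722 ± 67.6 CPM per kilobase of canonical transcript (SD, n = 2), NEAT1 at 104.4 ± 13.2 and GAS5 at 96.9 ± 0.794, the latter pair within their spread. In Y537S cells NEAT1 stood in the fifth place, at 36.6 ± 10.9, below GAS5 at 69.3 ± 9.23, SNHG1 at 54.8 ± 3.43 and SNHG5 at 48.0 ± 1.71. With the median transcript length NEAT1 stayed second in every genotype and ZFAS1 came next, so the places below MALAT1 depend on the annotation. The libraries were poly-A selected, so these values describe the RNA captured and not all RNA of each gene. Which transcripts were captured was not tested. SNHG12 and SNHG15 were among the lowest 3 under both lengths.

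The miR-331 mimic in Y537S cells gave the largest treatment changes among the members. MALAT1, NEAT1, SNHG1 and SNHG12 fell by 3.81-fold or more, and SNHG5 and SNHG15 rose by 1.41-fold and 1.72-fold. Thus 6 of 10 members were called, 2 up and 4 down, in a comparison in which 33.0% of all genes tested were called. The 8 hosts split: their median log2 fold change was 0.17, beside -0.01 for all genes.

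MALAT1 fell from 8926 and 11663 CPM in the control libraries of Y537S clones 1 and 2 to 879.9 and 1101 CPM with the mimic. Both treated libraries lay far below both controls, and in the lower of them MALAT1 had dropped from the most abundant row to rank 127. The change was 10.2-fold (log2 -3.35 ± 0.19, adjusted p = 0.00523). NEAT1 fell from 656.0 and 1007 CPM to 76.5 and 137.8 CPM, again with no overlap, a 7.61-fold change (log2 -2.93 ± 0.35, adjusted p = 0.00665). Ranked by log2 fold change among the 14877 genes tested, MALAT1 was number 136 and NEAT1 number 214 from the lowest.

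SNHG1 fell from 66.5 and 60.9 CPM to 14.5 and 18.3 CPM, 3.81-fold (log2 -1.93 ± 0.15, adjusted p = 0.00605). SNHG12, which hosts SNORD99 and 3 H/ACA snoRNAs, fell from 8.57 and 7.18 CPM to 1.33 and 2.28 CPM, 4.26-fold (log2 -2.09 ± 0.34, adjusted p = 0.0101). In both hosts the treated libraries were below the controls in each clone, and SNHG12 is a low row, with 54 counts in its lowest library.

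SNHG15, the host of SNORA9, rose from 15.6 and 14.8 CPM to 26.1 and 25.1 CPM (log2 0.78 ± 0.12, adjusted p = 0.00992). SNHG5, the host of SNORD50A and SNORD50B, rose from 61.6 and 64.8 CPM to 86.8 and 88.0 CPM (log2 0.50 ± 0.09, adjusted p = 0.0141). The treated libraries of both lay above the controls, and the SNHG5 call was lost without the control library of clone 1 (log2 0.46, adjusted p = 0.0952). SNHG8 (log2 0.42 ± 0.13, adjusted p = 0.0571) and ZFAS1 (log2 0.36 ± 0.11, adjusted p = 0.0562) were just outside the threshold (ZFAS1 passed without the treated library of clone 1, at 0.46, adjusted p = 0.0494), and GAS5 (log2 -0.19) and SNHG6 (log2 -0.02) were not called. Of the 3 hosts with the TOP pattern shown above, SNHG5 rose, SNHG12 fell and ZFAS1 was not called.

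Since the libraries of a comparison came from the same clones, the fits were repeated with the clone as a block. In Y537S cells with the miR-331 mimic SNHG8, ZFAS1 (each higher) and GAS5 (lower) were then also called, with adjusted p = 0.000304, 6.47e-05 and 0.0234, which made 9 of 10 members beside 60.7% of all genes. With a correction for the GC content of each gene added to the block, GAS5 lost the call (log2 -0.12, adjusted p = 0.168) and SNHG6 was called higher (log2 0.29, adjusted p = 0.00306), again 9 members, beside 53.4%.

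**Figure D2:**
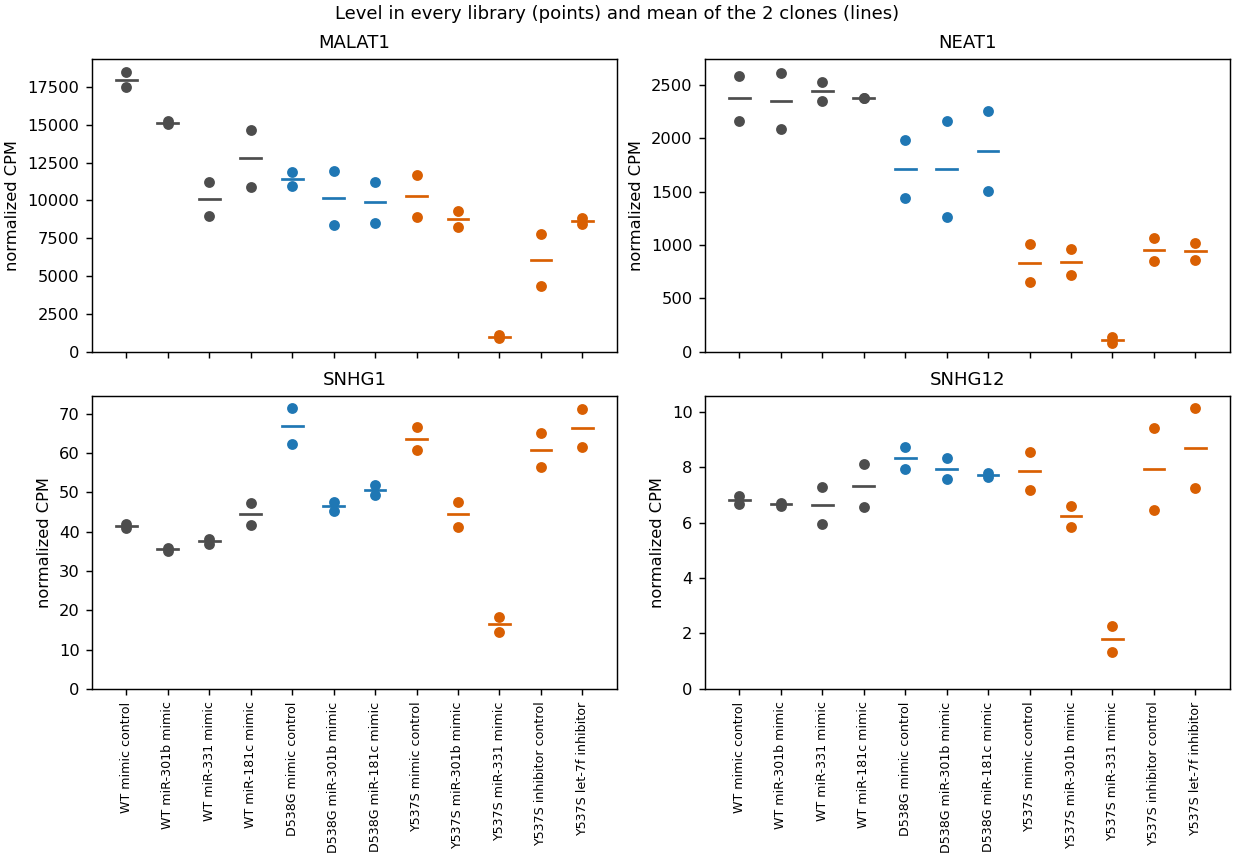
Normalized CPM of MALAT1, NEAT1, SNHG1 and SNHG12 in all 24 libraries (points) with the mean of the 2 clones (lines), grouped by genotype and treatment; colours mark the genotype. For each of the 4 RNAs the 2 Y537S libraries with the miR-331 mimic are the lowest of the 24.

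In WT cells MALAT1 fell with the same mimic, and the other 3 were not called. MALAT1 went from 18468 and 17471 CPM to 8940 and 11231 CPM, with no overlap, a 1.75-fold decrease (log2 -0.81 ± 0.08, adjusted p = 0.000173). NEAT1 measured 2586 and 2161 CPM with the control and 2530 and 2353 CPM with the mimic, with overlapping clones (log2 0.07 ± 0.07, not called). It was called higher without the control library of clone D1 (log2 0.20, adjusted p = 0.0447). SNHG1 (log2 -0.12 ± 0.08) and SNHG12 (log2 -0.01 ± 0.18) were not called either. SNHG15 rose from 10.7 and 10.9 CPM to 13.5 and 15.8 CPM (log2 0.47 ± 0.13, adjusted p = 0.0266), and SNHG8, the host of SNORA24, rose from 34.7 and 32.6 CPM to 39.98 and 43.5 CPM (log2 0.33 ± 0.08, adjusted p = 0.0143). Thus 3 of 10 members were called beside 24.8% of all genes, and the same 3 with the clone as a block, beside 37.0%. SNHG15 lost the call without either treated library or without the control library of clone D1 (adjusted p = 0.0525 to 0.189), and SNHG8 without the treated or the control library of clone D4 (0.125 and 0.0522). SNHG5 passed without the control library of clone D4 (log2 0.24, adjusted p = 0.0459). With the block and the GC correction 8 members were called, 7 higher and MALAT1 lower, beside 22.7% of all genes. NEAT1 was then higher by 0.23 (adjusted p = 3.73e-14), SNHG6 by 0.34, GAS5 and SNHG5 each by 0.26 and ZFAS1 by 0.17 (adjusted p = 0.00266) on the log2 scale, and SNHG1 stood at 0.041, not called.

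The difference between the Y537S and the WT response to miR-331 was tested as an interaction in 1 fit of the 8 libraries. The 4 RNAs that fell in Y537S cells fell more than in WT cells, by -3.01 ± 0.39 on the log2 scale for NEAT1 (adjusted p = 0.00346), -2.56 ± 0.23 for MALAT1 (adjusted p = 0.000587), -2.09 ± 0.37 for SNHG12 (adjusted p = 0.0131) and -1.83 ± 0.17 for SNHG1 (adjusted p = 0.000645). These were 4 of 10 members beside 9.94% of all genes. SNHG12 lost this call without the WT D1 treated library or either WT control library (adjusted p = 0.0583 to 0.0822). With the clone as a block GAS5 (log2 -0.34, adjusted p = 0.00759), SNHG5 (0.34, adjusted p = 0.00867) and ZFAS1 (0.29, adjusted p = 0.00947) were also called, 7 of 10 members beside 34.1% of all genes. SNHG15, called in each genotype, did not differ detectably between them (0.30 ± 0.17, adjusted p = 0.305). D538G cells with the miR-331 mimic were not analysed here.

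**Figure D3:**
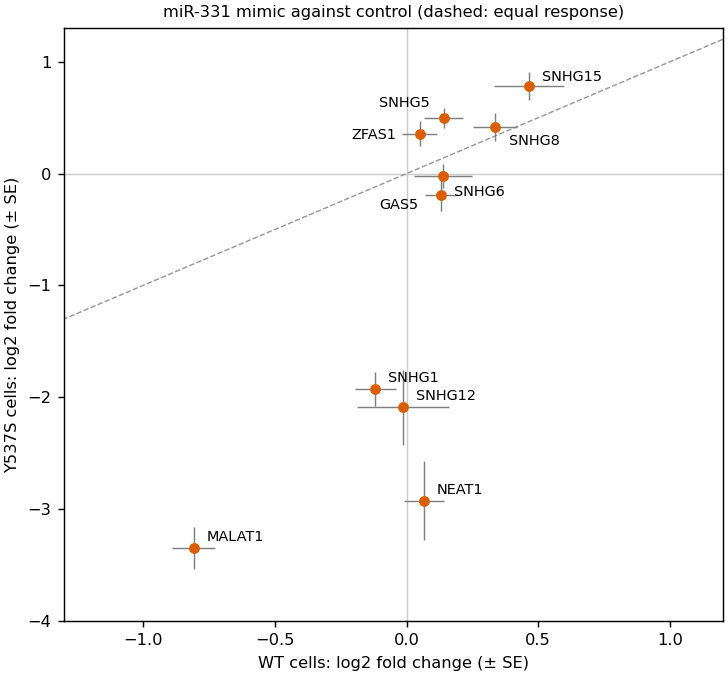
Log2 fold change of each member with the miR-331 mimic in WT cells (horizontal axis) and in Y537S cells (vertical axis), with SE bars; the dashed line marks equal responses. MALAT1, NEAT1, SNHG12 and SNHG1 lie at -1.93 or lower in Y537S cells and between -0.81 and 0.07 in WT cells, and the other 6 lie between -0.19 and 0.78 in Y537S cells.

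The snoRNA rows inside the 8 hosts were then read beside the hosts under miR-331. By RefSeq positions, 30 counted snoRNAs lie within the 8 host genes. The rows are low, since mature snoRNAs carry no poly-A tail and the libraries were poly-A selected, and which RNA the reads came from was not tested. In Y537S cells 24 rows passed the low-count filter. Of these 11 fell and none rose, with a median log2 fold change of -2.17, beside -0.01 for all genes, and all 24 values were below 0. With the clone as a block 20 fell. Of all genes tested 33.0% were called without the block and 60.7% with it. The filter kept rows through the libraries in which they were higher, so these counts describe the rows that passed and not all 30.

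The snoRNA rows were low also in hosts whose own row was not. For GAS5 (log2 -0.19), the 10 rows summed to 449 and 487 counts in the control libraries and to 82 and 106 counts with the mimic, although the treated libraries were the deeper ones. SNORD47 in GAS5 went from 117 and 130 counts to 5 and 8 (log2 -4.21, adjusted p = 0.00618), and SNORD79 from 80 and 80 counts to 5 and 8 (log2 -3.59, adjusted p = 0.00777). SNORD87, the snoRNA of SNHG6 (log2 -0.02), went from 45 and 52 counts to 0 and 5. In SNHG1, where the host row fell too, the 8 rows summed to 463 and 360 counts in the controls and to 66 and 86 counts with the mimic, and 5 of 8 were called. In ZFAS1 the 3 rows went from 62 and 65 to 14 and 31 counts, with none called. SNORA9 in SNHG15, the host that rose, had 28 and 9 counts in the controls and 1 and 1 with the mimic, and was too low to test.

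In WT cells 27 of the 30 rows were tested with the miR-331 mimic, at a median of -0.31. The lowest adjusted p in edgeR's test was 0.170, for SNORD50B, and no unadjusted p was under 0.05. The GAS5 rows summed to 462 and 421 counts with the control and to 464 and 399 with the mimic, and those of SNHG1 to 304 and 235 and to 231 and 215. The difference between the genotypes was called, lower in Y537S, for 5 of 27 rows, beside 9.94% of all genes. The split by host, and with it the naming of SNORD87, SNORA9 and SNORD50B, was chosen after the values were seen.

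**Figure D4:**
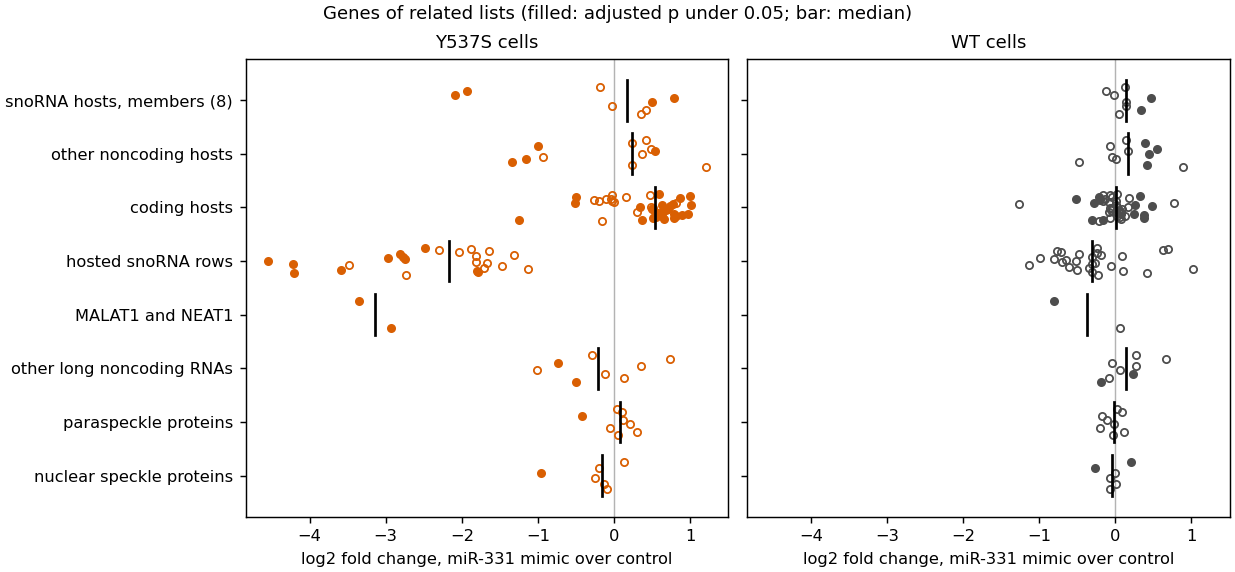
Log2 fold change with the miR-331 mimic of the genes of 8 lists in Y537S cells (left) and WT cells (right); filled points have an adjusted p under 0.05 and the bar is the list's median. MIR17HG, at 0 counts in both treated Y537S libraries, is left out; the snoRNA rows have their median at -2.17 in Y537S and at -0.31 in WT cells, and the protein-coding hosts at 0.54 and 0.01.

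Protein-coding snoRNA hosts went mostly up in Y537S cells with the miR-331 mimic. Of 41 tested, 25 rose and 3 fell, beside 33.0% of all genes called. Their median was 0.54, and among them were the ribosomal protein gene RPL13 (log2 1.01 ± 0.08, adjusted p = 0.00605) and the elongation factor EEF2 (log2 1.00 ± 0.08, adjusted p = 0.00605). TAF1D, a subunit of the RNA polymerase I selectivity factor, fell (log2 -1.25 ± 0.13, adjusted p = 0.00618). In WT cells 6 rose and 6 fell of 42, with a median of 0.01, beside 24.8% of all genes. The difference between genotypes was called up for 15 and down for 1 of 42, beside 9.94%. Of 11 other noncoding hosts, SNHG16 rose (log2 0.53) and SNHG3 (log2 -1.15), SNHG4 (log2 -1.35) and SNHG10 (log2 -1.005) fell in Y537S cells. In WT cells 4 rose and none fell. Of 14 TOP mRNAs, 7 rose and 1 fell in Y537S cells, against 2 and 3 in WT cells. The counts of these 2 lists stand beside 33.0% of all genes called in Y537S and 24.8% in WT cells. The share called among the 11 other noncoding hosts in Y537S cells was near that of all genes.

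The counts of the remaining lists stand beside 33.0% of all genes called in Y537S and 24.8% in WT cells. Among 10 NMD factors, 3 rose and 4 fell in Y537S cells, the latter including UPF3B (log2 -1.54 ± 0.27, adjusted p = 0.0123) and the kinase SMG1 (log2 -1.33 ± 0.16, adjusted p = 0.00681), and in WT cells none rose and 4 fell. Of 9 snoRNP core proteins 4 rose and 1 fell, with NHP2 at 0.75 and NOP10 at 0.77. Of the 8 paraspeckle proteins, the partners of NEAT1, 1 was called, HNRNPH3 (log2 -0.42 ± 0.11, adjusted p = 0.0367), and of 6 nuclear speckle proteins 1, the scaffold SRRM2 (log2 -0.96 ± 0.08, adjusted p = 0.00606). Of 9 other long noncoding RNAs, TUG1 (log2 -0.50) and HOTAIR (log2 -0.74) fell, and MIR17HG, the host of the miR-17-92 miRNAs, went from 72 and 84 counts to 0 and 0, at least 28.6-fold lower when 3 counts per library are set as the limit. SLC3A2, the neighbour of SNHG1, rose (log2 0.50 ± 0.13, adjusted p = 0.0333). These lists were drawn up with earlier results of the same data known, and their counts describe them only.

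The miR-301b mimic was the one treatment given to all 3 genotypes, and its changes in the members were small. In Y537S cells no member was called by edgeR beside 3.57% of all genes, although 4 had an unadjusted p under 0.05 and DESeq2 called 3. GAS5 measured 48.2 and 58.3 CPM with the control and 32.5 and 39.1 CPM with the mimic (log2 -0.60 ± 0.15, adjusted p = 0.0865). SNHG1 measured 66.5 and 60.9 CPM and then 47.5 and 41.3 CPM (log2 -0.54 ± 0.11, adjusted p = 0.0527), and ZFAS1 91.2 and 97.7 CPM and then 73.9 and 76.3 CPM (log2 -0.35 ± 0.09, adjusted p = 0.0906). In all 3 both treated libraries were below both controls, an order with an exact permutation p of 0.333 for 2 against 2. With the clone as a block 7 of 10 members were called, all lower, beside 38.4% of all genes: GAS5 (adjusted p = 5.55e-10), SNHG1 (1.04e-09), ZFAS1 (2.55e-06), MALAT1 (2.17e-05), SNHG6 (0.00581), SNHG5 (0.0191) and SNHG8 (0.0395). With the GC correction added, MALAT1 (log2 -0.085, adjusted p = 0.102), SNHG6 (-0.10, adjusted p = 0.417), SNHG5 (-0.14, adjusted p = 0.123) and SNHG8 (-0.020, adjusted p = 0.913) lost these calls. SNHG12 was then called lower (log2 -0.46, adjusted p = 0.0178) and NEAT1 higher (0.13, adjusted p = 0.0127), so that 5 members, 1 up and 4 down, were called beside 28.2% of all genes.

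In D538G cells SNHG1 fell from 62.3 and 71.6 CPM to 47.65 and 45.3 CPM with miR-301b (log2 -0.52 ± 0.10, adjusted p = 0.0130), with no overlap. It was the 1 member called, beside 11.8% of all genes. With the block GAS5 (log2 -0.23, adjusted p = 0.0209), SNHG5 (log2 -0.21, adjusted p = 0.0276) and MALAT1 (log2 -0.19, adjusted p = 0.000699) were also called lower, 4 members beside 33.3%. All 3 of these added calls were lost with the GC correction, at log2 -0.16 for GAS5 (adjusted p = 0.124), -0.16 for SNHG5 (0.109) and -0.024 for MALAT1 (0.786). SNHG1 was then the 1 member called, beside 17.2%. MALAT1 measured 11876 CPM with the control and 11954 CPM with the mimic in clone A5, and 10975 and 8343 CPM in clone C2. Without the treated library of clone A5 the values were -0.45 for MALAT1 (adjusted p = 0.00153) and -0.41 for GAS5 (adjusted p = 0.0440), and without that of clone C2 the MALAT1 value was 0.072.

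In WT cells MALAT1 fell from 18468 and 17471 CPM to 15268 and 15024 CPM (log2 -0.25 ± 0.05, adjusted p = 0.0253), the 1 member called beside 8.50% of all genes. The call was lost without the control library of clone D1 or D4 (adjusted p = 0.476 and 0.187) and in a fit of all WT libraries together (0.225). With the block GAS5 (log2 -0.27), SNHG5 (-0.31), SNHG6 (-0.26), SNHG1 (-0.23) and ZFAS1 (-0.26) were also called lower, at adjusted p = 0.00855, 0.0035, 0.049, 0.0415 and 0.0059, 6 members beside 28.2% of all genes. With the GC correction GAS5, SNHG6 and SNHG1 lost the call (adjusted p = 0.0678, 0.626 and 0.397) and NEAT1 was called higher, which left 4 members, 1 up and 3 down, beside 14.8%. MALAT1 kept its call at -0.091 (adjusted p = 0.00589). SNHG5 (log2 -0.46, adjusted p = 0.0192) and ZFAS1 (log2 -0.37, adjusted p = 0.0271) also passed in the unblocked fit without the treated library of clone D4. SNHG1 measured 41.9 and 41.0 CPM with the control and 35.04 and 35.95 CPM with the mimic. NEAT1, the member with 4 matches to this seed, changed by -0.0051, 0.0062 and -0.02 on the log2 scale in Y537S, D538G and WT cells and was not called in any. With the block alone it was not called either. With the block and the GC correction it was called higher in Y537S (0.13, adjusted p = 0.0127) and in WT cells (0.11, adjusted p = 0.0156) and not in D538G cells (0.083).

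No member differed detectably in its miR-301b response between the mutants and WT in edgeR's or DESeq2's test, and none had an unadjusted p under 0.05 in the former. For Y537S the members' differences ran from -0.32 ± 0.17 (GAS5) to 0.12 ± 0.16 (SNHG5), beside 0.00632% of all genes called, and for D538G from -0.29 ± 0.13 (SNHG1) to 0.16 ± 0.15 (SNHG6), beside 0.00640%. With the clone as a block none was called either, beside 0.202% and 0.147%.

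**Figure D5:**
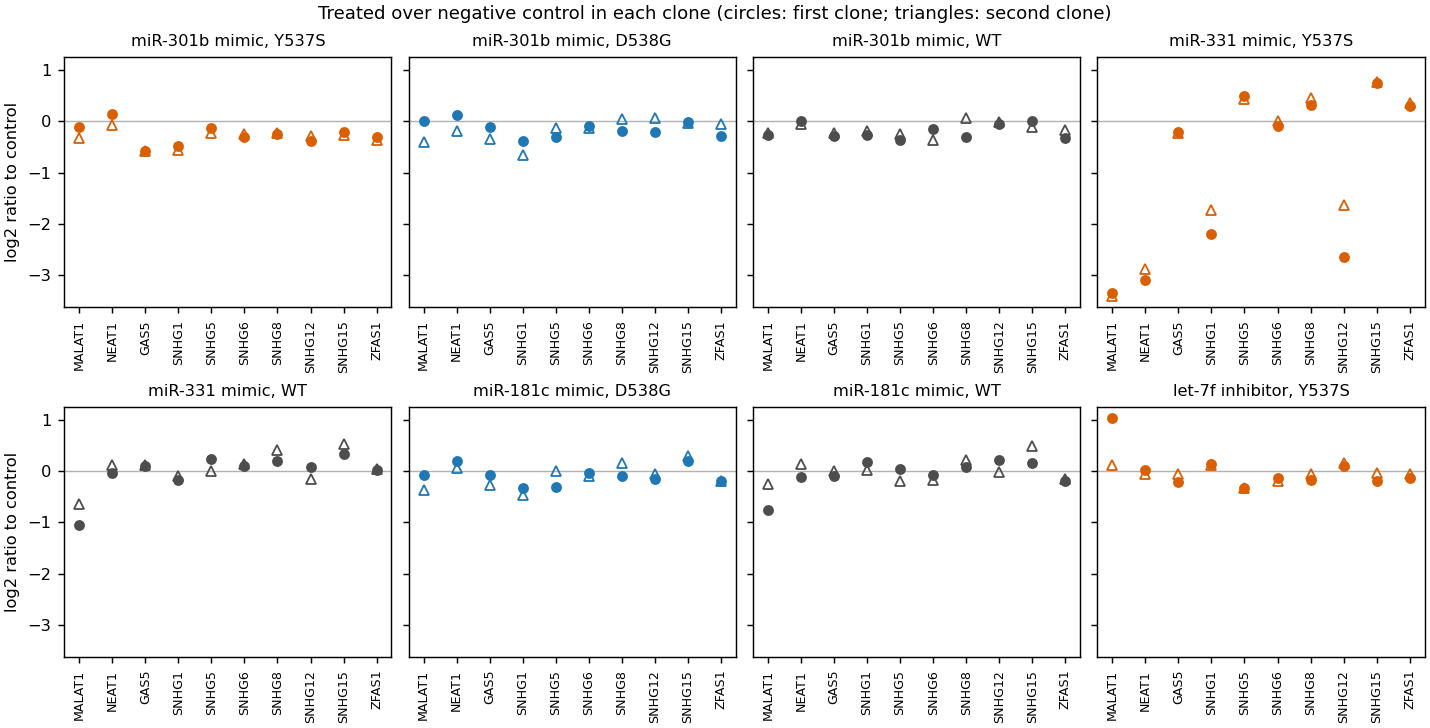
Log2 ratio of treated to control CPM of each member in each of the 8 treatment comparisons, by clone (circles: clone 1, A5 or D1; triangles: clone 2, C2 or D4); colours mark the genotype. With the miR-331 mimic in Y537S cells MALAT1, NEAT1, SNHG1 and SNHG12 lie between -3.41 and -1.63, and with the let-7f inhibitor MALAT1 lies at 1.03 in clone 1 and 0.12 in clone 2.

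With the miR-181c mimic SNHG1 was called in D538G and MALAT1 in WT cells. In D538G cells SNHG1 fell from 62.3 and 71.6 CPM to 49.4 and 51.9 CPM (log2 -0.39 ± 0.09, adjusted p = 0.0286), 1 of 10 members beside 9.52% of all genes. The call was lost without either treated library or without the control library of clone C2 (adjusted p = 0.0908 to 0.165). With the block MALAT1 (log2 -0.21, adjusted p = 1.92e-05), ZFAS1 (log2 -0.18, adjusted p = 0.0339) and NEAT1 (log2 0.14, adjusted p = 0.0219) were called too, 4 members beside 29.3%. With the GC correction added to the block MALAT1 (log2 -0.053, adjusted p = 0.132) and ZFAS1 (-0.074, adjusted p = 0.395) lost the call, SNHG8 was called higher (0.23, adjusted p = 0.0457) and NEAT1 measured 0.27 (adjusted p = 3.34e-13), 3 members beside 18.3%. MALAT1 was also called in the unblocked fit without the treated library of clone A5 (log2 -0.42, adjusted p = 0.00449).

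In WT cells MALAT1 fell from 18468 and 17471 CPM to 10901 and 14689 CPM (log2 -0.50 ± 0.11, adjusted p = 0.0150), with no overlap and with the larger drop in clone D1. It was 1 of 10 members beside 16.4% of all genes, and DESeq2 did not call it (adjusted p = 0.0892). The value was -0.30 without the treated library of clone D1 and -0.75 without that of clone D4. With the block ZFAS1 was also called lower (log2 -0.18, adjusted p = 0.0483), 2 members beside 27.9%. With the GC correction ZFAS1 lost the call (adjusted p = 0.310) and SNHG8 was called higher (log2 0.36, adjusted p = 0.00321), again 2 members, beside 16.7%. SNHG1, lower in D538G cells, measured 41.9 and 41.0 CPM with the control and 47.3 and 41.7 CPM with the mimic in WT cells (log2 0.09 ± 0.09). The difference in its response, -0.48 ± 0.14, was not called (adjusted p = 1). edgeR and DESeq2 called none of the 10 differences, beside 0.00646% of all genes, and 1 member, SNHG1, had an unadjusted p under 0.05. The block called none, beside 0.0775%. NEAT1, with 4 matches to this seed, measured 0.15 and -0.0042 on the log2 scale in D538G and WT cells without the block, neither called.

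The let-7f inhibitor, given to Y537S cells only, called no member and 0% of all genes by edgeR, and DESeq2 called no member. SNHG5 had an unadjusted p under 0.05 as the 1 member. MALAT1 measured 4311 and 7795 CPM with the inhibitor negative control and 8810 and 8443 CPM with the inhibitor (log2 0.51 ± 0.27, adjusted p = 1). The treated libraries were above both controls, and the control clones differed from each other by more than the treated ones. With the block MALAT1 (log2 0.57, adjusted p = 0.00213) and SNHG5 (log2 -0.34, adjusted p = 0.000242) were called, 2 members beside 11.2% of all genes. With the GC correction GAS5 (log2 -0.18, adjusted p = 0.0339) and ZFAS1 (log2 -0.14, adjusted p = 0.0395) were called lower as well, 4 members beside 10.3%. Without the control library of clone 2 MALAT1 was called in the unblocked fit as well (log2 1.01, adjusted p = 0.00471).

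The MALAT1 value with the inhibitor depends on the level in the inhibitor negative control, which was lower than in the mimic negative control of the same clones, at 8926 and 11663 CPM. Between these 2 controls edgeR and DESeq2 called no member, beside 0% of all genes, and 3 members (MALAT1, SNHG5 and SNHG15) had an unadjusted p under 0.05. With the block MALAT1 was lower (log2 -0.82, adjusted p = 2.00e-11) and NEAT1 (0.22, adjusted p = 0.000944), SNHG15 (0.43, adjusted p = 0.00244), SNHG5 (0.27, adjusted p = 0.00241) and SNHG8 (0.27, adjusted p = 0.0202) were higher with the inhibitor control, 5 members beside 16.7%. With the GC correction GAS5 (0.23, adjusted p = 0.00885) and ZFAS1 (0.17, adjusted p = 0.00797) were called higher too, 7 members beside 15.6%. MALAT1 was called without the block only when the inhibitor control library of clone 2 was left out (log2 -1.26, adjusted p = 0.0208). The part of this difference between controls in the let-7f values was not tested.

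Likeness between RNAs was measured as Pearson's r of log2 CPM over the 24 libraries, as deviations from the mean of each clone, among 10064 genes. The libraries share clones and treatments, so the values are descriptive. SNHG1 and SNHG12 were alike (r = 0.956, and 0.836 over 22 libraries without Y537S miR-331), and so were SNHG12 and NEAT1 (0.956 and 0.810), SNHG1 and NEAT1 (0.928 and 0.678) and MALAT1 and NEAT1 (0.923 and 0.615). SNHG8 was alike to SNHG15 (0.890 and 0.861), SNHG5 to ZFAS1 (0.867 and 0.813) and GAS5 to SNHG6 (0.848 and 0.858), and SNHG15 ran against MALAT1 (-0.749 and -0.624). Outside the members, MALAT1 was most like LINC00472 (0.977, and 0.903 without the 2 libraries), LINC00342 (0.975 and 0.893) and PLEKHH1 (0.975 and 0.898). NEAT1 was most like AHSA2 (0.995 and 0.965), CCNL2 (0.994 and 0.955) and COL7A1 (0.993 and 0.955), and the mean of the 8 hosts was most like the RNA helicase gene DDX3X (0.913 and 0.895), RNF6 (0.907 and 0.907) and HSBP1L1 (0.878 and 0.889). With the miR-331 mimic LINC00342 changed by -3.60 in Y537S and -0.76 in WT cells on the log2 scale. LINC00472 changed by -1.95 and -0.45 and PLEKHH1 by -1.03 and -0.21. Of the genes most like NEAT1, AHSA2 changed by -3.05 and 0.13, CCNL2 by -1.83 and 0.10 and COL7A1 by -4.59 and 0.44. The miR-331 libraries were among those used to pick these genes, so a shared direction there is partly built in.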

How the data were processed

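RNA-seq was performed on T-47D clones with WT, Y537S or D538G ER after transfection of miRNA mimics, a let-7f inhibitor or negative controls. The authors made poly-A selected, stranded libraries (KAPA), sequenced them on an Illumina NovaSeq, aligned the reads to hg19 with HISAT2, processed them with SAMtools and counted them per gene with featureCounts (Subread) on UCSC Known Genes. Tool versions, the strand setting and the treatment of multi-mapping reads are not given in the sources used here. The deposited values are raw counts of reads per gene symbol, not normalized, in 1 table per genotype with 26364 rows each. The headings of D538G (A5, C2) and WT (D1, D4) columns could not be matched to the clone numbers of the labels, so those columns were placed in their group by genotype and treatment, and no other columns of per-sample values were present. Both clones of a condition served as its 2 replicates.

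The members and gene lists were chosen with earlier results of these data known. All members were named. Of each list at most 2 genes per comparison with the smallest p were named, plus up to 2 called genes with the largest changes, and the 3 genes most like the hosts' mean, MALAT1 and NEAT1. From the counts, 8 treatment comparisons, 3 genotype comparisons with the mimic negative control, the 2 controls against each other in Y537S cells, and 4 differences in response (mutant minus WT) were computed with edgeR 4.0.16 in R 4.3.3 (TMM normalization, filterByExpr, quasi-likelihood F test, Benjamini-Hochberg adjustment over all genes tested, threshold 0.05). Errors of fold changes are standard errors computed from the fold change and the F value. Without the block, p-values measure the spread between 2 clones per group. An exact permutation test of 2 against 2 could not go below 0.333, so clones without overlap are weak evidence by themselves. The blocked fits take out the difference between clones, so their p-values do not measure that spread. With so few libraries they lean on the spread estimated over many genes. Between the 2 negative controls the block called 16.7% of all genes. Since the libraries of a comparison came from the same 2 clones, pairing was checked by the correlation of the difference between clones in treated and control libraries across genes, which was 0.54 to 0.59 in Y537S, 0.24 and 0.25 in D538G and 0.17 to 0.24 in WT cells. The blocked value is printed where it changed a call. Clones of a group differed by 10.7 to 45.6 chi-square units per gene, so no library was a copy of another.

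Alternatives were DESeq2 1.42.0, its size factors within edgeR, no filter on low counts, the clone as a block, the block with a GC correction, all conditions of a genotype in 1 fit, each pair of genotypes in its own fit, genotypes compared under the miR-301b mimic, a GC correction and leaving out each library. Positions, lengths and overlaps are from the GENCODE 44 annotation on GRCh37, matched by symbol for 22494 rows and by RefSeq synonym for 1363, with 2507 unmatched. Seed matches are the reverse complement of bases 2 to 8 in the canonical transcript. snoRNAs were assigned to hosts by RefSeq spans (GRCh38.p14). The fits were tested on simulated data drawn from these libraries. For the miR-301b comparison in Y537S cells (14908 genes), 17.9% of genes changed 1.5-fold, 76.1% of those changed 2-fold and 95.5% of those changed 3-fold were recovered. At 1.5-fold, 41.8% were recovered for Y537S against WT cells and 10.4% for the difference in miR-301b response between Y537S and WT cells.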

Additional observations from a re-analysis of the deposited data

Results flagged for a closer look

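The response to the miR-331 mimic differed between Y537S and WT cells for 4 of 10 members, beside 9.94% of all genes. The test was the interaction in edgeR over 8 libraries. On the log2 scale the Y537S change minus the WT change was -3.01 for NEAT1, -2.56 for MALAT1, -2.09 for SNHG12 and -1.83 for SNHG1. Both Y537S clones changed lower than both WT clones in each, an order of 2 against 2 that adds little to the calls. The adjusted p-values were 0.00346, 0.000587, 0.0131 and 0.000645. In the fits that leave out 1 library, MALAT1, NEAT1 and SNHG1 were called in 8 of 8 and SNHG12 in 5 of 8.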

How the results depend on the processing

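Of the 80 member tests in the treatment comparisons 13 were called (4 up, 9 down), against 37 with the clone as a block (8 up, 29 down), 36 with the block and a GC correction (18 up, 18 down) and 11 to 15 without 1 library. The numbers of calls in the 3 genotype comparisons were 10, and 6 to 14 without 1 clone, with 6 after leaving out either WT clone. Between the 2 negative controls they were 0, 5 with the block, 7 with the block and GC correction and 0 to 1 without 1 library. Among the differences in response they were 4, 7 with the block, 7 with the block and GC correction and 3 to 4 without 1 library. DESeq2 gave 17, 12, 0 and 4 calls in these 4 families, and all but 1 of the 27 calls passed with it. Of all genes tested edgeR called 0% to 33.0% per treatment comparison, 11.2% to 60.7% with the block and 10.3% to 53.4% with the GC correction added. Genotype comparisons called 9.98% to 32.1%, and the 2 controls 0%, 16.7% and 15.6%. Differences in response called 0.00632% to 9.94%, and 0.0775% to 34.1% with the block. The shares over all genes thus rose with the block as well. The block, its GC correction, the DESeq2 size factors and the omission of the count filter lost none of the calls they applied to. The GC correction added to the block did end calls that the block alone had made. Signs turned in values that were not called. NEAT1 with miR-301b in Y537S cells (log2 -0.0051) was 0.0017 with DESeq2, 0.0042 with its size factors, 0.00085 without the count filter, 0.013 with the block and 0.13 with the block and GC correction. NEAT1 with miR-301b in D538G cells was -0.028 with the block, and in WT cells 0.11 with the block and GC correction. NEAT1 with miR-181c in WT cells was 0.0013 with the block, 0.13 with the block and GC correction and 0.016 in a fit of all WT libraries. With the block and GC correction SNHG6 with miR-331 was 0.29 in Y537S and SNHG1 0.041 in WT cells. Without 1 library MALAT1 with miR-301b in D538G cells ran from -0.45 to 0.072 (above 0 without the treated library of clone C2), NEAT1 with miR-181c in D538G cells from -0.17 to 0.41 (-0.17 without the treated library of clone A5, -0.069 without the control library of clone C2), and NEAT1 in the inhibitor against the mimic control from -0.076 (without the mimic control library of clone 1) to 0.55. NEAT1 with miR-301b ran from -0.28 to 0.35 in Y537S, from -0.44 to 0.34 in D538G and from -0.20 to 0.14 in WT cells, and in WT cells from -0.054 to 0.20 with miR-331 and from -0.14 to 0.13 with miR-181c. With miR-331 SNHG6 ran from -0.082 to 0.047 in Y537S cells, and SNHG12 from -0.17 to 0.13 and ZFAS1 from -0.0011 to 0.10 in WT cells. SNHG8 with miR-181c in D538G cells ran from -0.068 to 0.16, and the SNHG5 difference in miR-301b response between Y537S and WT cells from -0.034 to 0.25. The causes were not tested. In the simulated comparisons, with 2 clones per genotype, the unblocked test missed most changes of 1.5-fold, to a degree that differed between comparisons. SNHG12, at 54 counts in its lowest library, had the widest counting error.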

Other observations

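Partner proteins of the nuclear RNAs and other lists were compared between genotypes with the mimic negative control, where 32.0% of all genes were called in Y537S and 32.1% in D538G against WT cells. Of 8 paraspeckle proteins 7 rose in Y537S against WT cells, with a median log2 fold change of 0.44, beside -0.0037 for all genes, among them SFPQ (0.44, adjusted p = 0.00222). In D538G cells 4 of 8 rose. Of 6 nuclear speckle proteins 3 rose in each mutant. Of 9 snoRNP core proteins 3 rose in Y537S cells, led by the pseudouridine synthase DKC1 (1.51, adjusted p = 2.19e-05), and 4 in D538G cells. The protein-coding snoRNA hosts rose in 16 and fell in 2 of 42 cases in Y537S cells, and rose in 12 and fell in 4 in D538G cells. The values are from edgeR, and the comparisons share the WT libraries.

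Under the miR-301b mimic the protein-coding hosts were called lower in 2 of 42 cases in Y537S, 7 in D538G and 5 in WT cells, and in 25, 13 and 17 with the clone as a block. Of all genes tested 3.57%, 11.8% and 8.50% were called without the block, and 38.4%, 33.3% and 28.2% with it. The 2 in Y537S cells were NOP56, a box C/D snoRNP protein (log2 -0.46, adjusted p = 0.0439), and DKC1 (log2 -0.72, adjusted p = 0.0235), both counted also among the snoRNP core proteins.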
